A study of Mus musculus with 5 samples.

Results

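Transcription factor genes of 4 developmental families (Prrx1 and Prrx2, Twist1 and Twist2, Osr1 and Osr2, Meox1 and Meox2), 8 in all, were followed in GFP+ cells sorted from mouse hindlimb skeletal muscle. The rule for membership used names and no measured values, though the list was drawn up with earlier results of these data known, and all 8 were found among the 31055 genes listed in the matrices. Cells came from adult Prx1Cre;mTmG mice on a C57Bl/6 background. In these mice a Cre driven by a limb enhancer of Prrx1 (formerly Prx1) switches on membrane GFP for good, so that GFP marks descent from a cell that once used the enhancer and not present Prrx1 transcription. Single-cell RNA sequencing (scRNAseq) was done on 5 droplet libraries, 1 per condition, each from 2 pooled mice: SC3 from uninjured muscle (d0), SC4 from d3 post-fracture, SC9 and SC10 from d5 post-fracture and d5 post-polytrauma, and SC5 from d3 post-polytrauma. Fracture was a non-stabilized break of the tibia, and polytrauma added mechanical injury of the adjacent muscle. SC5 and SC9 are placed here by their numbers of cells and not by the deposited labels, which give SC5 as d5 post-fracture and SC9 as d3 post-polytrauma. Under those labels each value below stays with its library, and the 2 conditions change places.

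Prrx1 and Prrx2 are paired-related homeobox factors of limb and craniofacial mesenchyme, and Prrx1 marks mesenchymal progenitors in adult muscle. Twist1 and Twist2 are basic helix-loop-helix (bHLH) factors that hold back osteoblast and muscle differentiation and act as dimers with the E proteins Tcf3, Tcf4 and Tcf12. Osr1 and Osr2 are odd-skipped zinc finger factors of limb connective tissue and joints, with Osr1 labelling the embryonic source of fibro-adipogenic progenitors. Meox1 and Meox2 are homeobox factors of the somites, and Meox2 also acts in limb muscle and in vessels.

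Cells with 350 to 8000 detected genes, under 20% mitochondrial counts and at least 1000 unique molecular identifiers (UMIs, each counting 1 captured transcript) were kept, 29831 of 34439 barcodes. They held 17437190 UMIs in SC3, 99943787 in SC4, 51864740 in SC9, 103287049 in SC5 and 202233564 in SC10, with median depths per cell from 3640 in SC3 to 34949 in SC9. SC3, SC4 and SC5 shared 405 or more barcodes in each pair, SC9 and SC10 shared 944, and no pair across these groups shared more than 3. The groups that this split gives are called barcode sets below. The labels do not name such sets, and the paper's methods give the same kit version for all libraries. By cell numbers this split is also the split between d5 and all earlier samples, and both splits cannot be told apart. Of the 1468 cells kept in SC9, 869 (59.2%) carried a barcode also found in another library. Without any shared barcode 599 cells of SC9 and 11599 of SC10 stayed. With shared barcodes kept where at least 10 times deeper than in every other library, 1457 and 11603 stayed. Shared SC9 cells were thus mostly far deeper than their partners, and shared SC10 cells rarely were. Without replicates no difference was tested, intervals cover counting error only, and differences between mice or libraries were not measured. Cells with 2 or more markers of hematopoietic, endothelial or myogenic cells made up 0.756% of SC3, 0.948% of SC4, 5.04% of SC9, 3.02% of SC5 and 0.863% of SC10. These shares were taken at full depth, which differs between libraries, and how far they follow depth was not tested. Median depths were 15688 UMIs in SC5 and 15753 in SC10. With cells drawn down to 2000 UMIs, SC9 had 0.0695% of cells with 2 or more hematopoietic markers, and SC5 had the most, 1.32%.

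The 8 genes lie on 5 chromosomes of GRCm38 (mm10) by GENCODE M21. Prrx1 (ENSMUSG00000026586) spans chr1:163245119-163313710 on the minus strand, Prrx2 (ENSMUSG00000039476) spans chr2:30834972-30881251, Twist1 (ENSMUSG00000035799) spans chr12:33957671-33959829 and Twist2 (ENSMUSG00000007805) spans chr1:91801461-91848028. Osr1 (ENSMUSG00000048387) spans chr12:9570116-9581500, Osr2 (ENSMUSG00000022330) spans chr15:35296098-35303305, Meox1 (ENSMUSG00000001493) spans chr11:101877510-101894374 on the minus strand, and Meox2 (ENSMUSG00000036144) spans chr12:37108540-37179534. Prrx1, Twist2, Osr1 and Meox1 overlap an annotated antisense-strand gene. Prrx1 also overlaps the same-strand long noncoding gene Gm26523, which is listed in the matrices. The paper gives default settings of the counting program Cell Ranger, and whether the counting used strand was not stated in the sources used here.

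Sequence before the start site was available for 5 of the 8 genes from RefSeq (GRCm38.p6). The table held no entry for Osr1, Osr2 and Meox1. The stretch of Prrx2 lies inside an annotated exon and is not printed. Those of Twist1, Meox2 and Prrx1, which were higher in SC9 than in SC4, are shown with that of Twist2, the paralog of Twist1. Capitals mark the letters TAAT on either strand, the core of sites bound by many homeobox factors, and the E-box CANNTG, bound by bHLH dimers.
Twist1, chr12:33957421-33957670, plus strand: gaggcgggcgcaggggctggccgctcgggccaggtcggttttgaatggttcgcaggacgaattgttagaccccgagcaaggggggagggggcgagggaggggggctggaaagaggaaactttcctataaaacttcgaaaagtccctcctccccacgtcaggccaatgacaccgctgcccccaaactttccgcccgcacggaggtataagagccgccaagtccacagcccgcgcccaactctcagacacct
Twist2, chr1:91801211-91801460, plus strand: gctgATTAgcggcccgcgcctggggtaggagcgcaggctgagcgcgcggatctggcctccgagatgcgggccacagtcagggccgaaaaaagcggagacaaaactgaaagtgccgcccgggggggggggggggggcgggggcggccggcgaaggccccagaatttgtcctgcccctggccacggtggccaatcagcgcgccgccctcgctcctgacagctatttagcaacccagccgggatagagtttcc
Prrx1, chr1:163313711-163313900, minus strand: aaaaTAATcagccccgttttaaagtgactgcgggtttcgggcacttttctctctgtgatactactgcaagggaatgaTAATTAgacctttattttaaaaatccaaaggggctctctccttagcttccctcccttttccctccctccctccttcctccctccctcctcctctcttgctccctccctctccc
Meox2, chr12:37108290-37108539, plus strand: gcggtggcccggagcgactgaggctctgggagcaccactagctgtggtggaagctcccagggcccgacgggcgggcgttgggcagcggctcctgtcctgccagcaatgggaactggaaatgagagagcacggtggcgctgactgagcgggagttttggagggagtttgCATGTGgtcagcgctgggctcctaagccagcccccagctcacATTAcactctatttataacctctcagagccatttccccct

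The stretches of Twist1, Twist2 and Meox2 are the 250 bases before the start, and that of Prrx1 is the 190 bases that lie outside its exons. The 250 bases of Twist1 held neither motif. Those of Twist2 held 1 TAAT core and no E-box, and those of Meox2 held 1 of each. In Prrx1 3 TAAT cores were found, 2 of them overlapping, and no E-box. Of all 32851 promoter windows in the table, 66.2% held an E-box and 54.9% a TAAT core within 250 bases, and 57.3% and 48.9% within 190 bases. These matches describe the letters in the windows only.

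Levels are given as UMIs of a gene per 1000000 UMIs of the library (CPM), with the exact Poisson 95% interval drawn in the plot of levels by library. Prrx1 stood at 134 CPM in SC3, 124 in SC4, 182 in SC5, 256 in SC9 and 275 in SC10. The 5 intervals did not overlap, and the highest library was 2.22 times the lowest. With libraries scaled instead by the median ratio over genes found in all of them, Prrx1 was lowest in SC3 and higher in SC5 than in SC9. Its paralog Prrx2 was at 13.0 CPM in SC3, 17.9 in SC4, 12.9 in SC5, 130 in SC9 and 150 in SC10. SC9 and SC10 thus stood far above the other 3 libraries, among which SC3 and SC5 had overlapping intervals, and the highest level was 11.6 times the lowest. Prrx1 made up 91.2% of the UMIs of the pair in SC3, 87.4% in SC4 and 93.4% in SC5, against 66.4% in SC9 and 64.7% in SC10.

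Twist1 was measured at 26.2 CPM in SC3, 14.9 in SC4, 11.9 in SC5, 122 in SC9 and 84.2 in SC10. As with Prrx2, SC9 and SC10 were high, but here SC9 led and SC3 was above SC4 and SC5. Twist2 had few UMIs, with 8.20 CPM in SC3, 6.38 in SC4, 7.95 in SC5, 10.6 in SC9 and 17.3 in SC10. The intervals of SC3 and SC5 overlapped, and the range was 2.70-fold against 10.2-fold for Twist1.

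**Figure D1:**
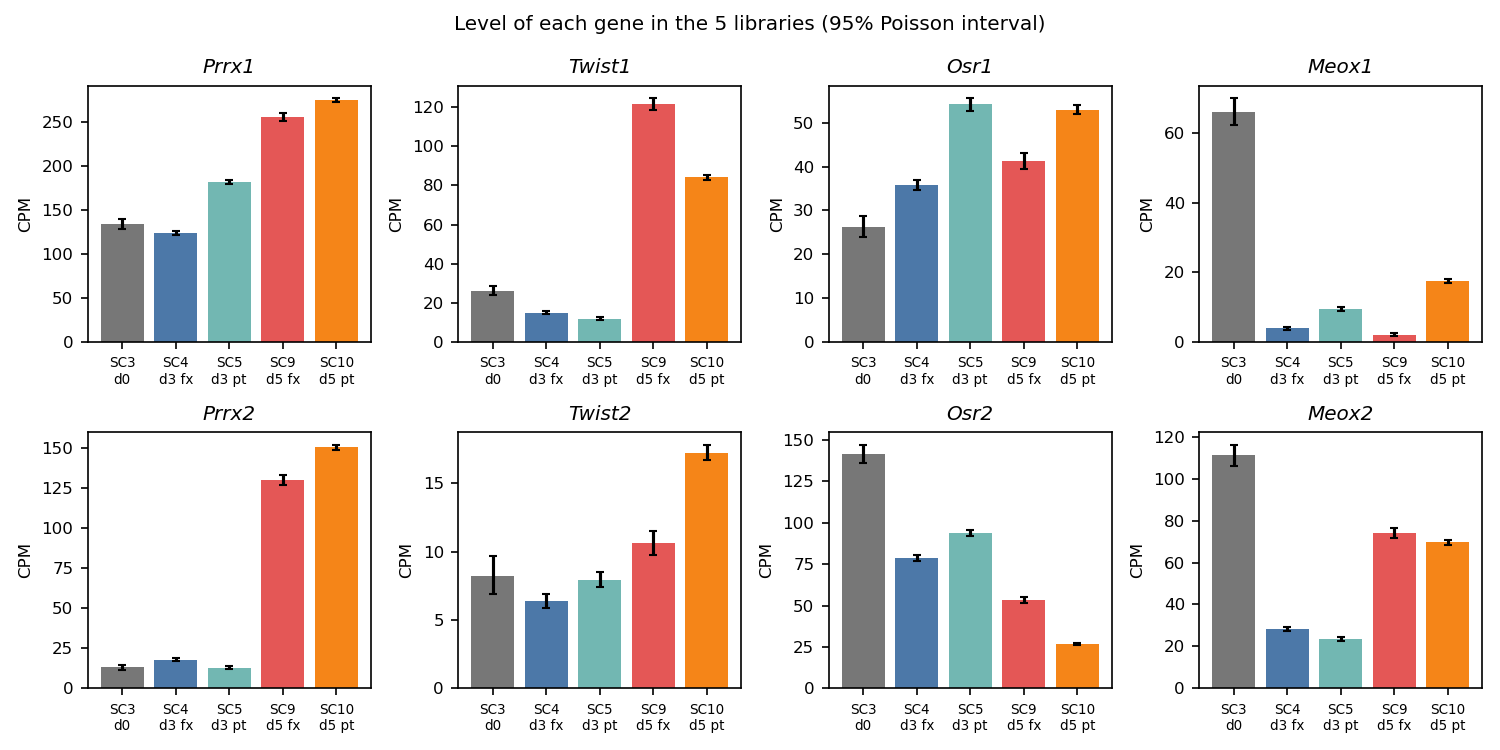
CPM (vertical axes, from 0) of each gene in the 5 libraries, with bars for libraries and lines for exact Poisson 95% intervals. The conditions under the bars (fx for fracture, pt for polytrauma) follow the cell numbers. Prrx2 and Twist1 were high in SC9 and SC10 alone, Osr2 was highest at d0, and Meox1 was at 66.2 CPM at d0 against 17.6 or less elsewhere.

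Osr1 was at 26.2 CPM in SC3, 35.7 in SC4, 54.2 in SC5, 41.2 in SC9 and 52.9 in SC10. All 4 injured samples were above d0, and SC5 and SC10 could not be separated by their intervals. Osr2 was highest at d0, with 141 CPM in SC3, 78.9 in SC4, 93.8 in SC5, 53.3 in SC9 and 26.8 in SC10. By CPM every library after injury was below d0, and the fall from SC3 to SC10 was 5.29-fold. With libraries scaled by the median ratio instead, the d3 libraries were near d0, at 8488 scaled UMIs in SC5 and 7372 in SC4 against 8850 in SC3. Osr1 accounted for 15.6% of the UMIs of the Osr pair in SC3, 31.2% in SC4, 36.6% in SC5, 43.6% in SC9 and 66.4% in SC10.

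Meox1 had the widest range of the 8 genes, at 33.3-fold. It was at 66.2 CPM in SC3, 3.92 in SC4, 9.37 in SC5, 1.99 in SC9 and 17.6 in SC10. The value of SC9 rested on 103 UMIs and that of SC4 on 392. Meox2 stood at 111 CPM in SC3, 28.1 in SC4, 23.6 in SC5, 74.0 in SC9 and 69.7 in SC10. It was low in SC4 and SC5 and partly back in SC9 and SC10, whereas Meox1 stayed far below d0 in all 4 libraries after injury.

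Because deeper cells show more genes, shares of cells were taken after drawing 2000 UMIs from each cell, which left out 744 cells of SC3, 225 of SC4, 83 of SC5, 30 of SC9 and 424 of SC10. At that depth Prrx1 was detected in 20.0% of SC3 cells, 21.9% of SC4, 28.4% of SC5, 37.1% of SC9 and 39.8% of SC10, where the unthinned share in SC3 was 32.0%. Prrx2 was found in 2.44%, 3.60%, 3.06%, 20.3% and 26.3% of cells in the same order. Twist1 was found in 4.42%, 3.36%, 2.89%, 21.1% and 14.6%. Detection of both at this depth was thus between 14.6% and 26.3% in SC9 and SC10. Unthinned, in the same order, Prrx2 was found in 4.58%, 25.1%, 18.0%, 84.7% and 77.1% of cells. Twist1 was found unthinned in 8.64%, 21.8%, 17.0%, 85.8% and 63.6%. The thinned values are therefore shares of detection and not of cells that use the gene.

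Twist2 was seen in 1.26% of SC3 cells, in between 1.14% and 1.60% in SC4, SC5 and SC9, and in 2.84% in SC10. Osr1 went from 5.07% in SC3 to 9.26% in SC10 and Osr2 from 18.8% to 5.33%. Meox1 was found in 9.85% of SC3 cells, 0.764% of SC4, 1.81% of SC5, 0.417% of SC9 and 3.32% of SC10. Meox2 was found in 18.9%, 6.02%, 4.48%, 15.2% and 13.2%, with SC9 and SC10 nearer to d0 than SC4 and SC5 were. At least 1 of the 8 genes was detected in 56.8% of SC3 cells, 45.4% of SC4, 51.0% of SC5, 70.9% of SC9 and 72.9% of SC10. In a hematopoietic-like cluster of SC5 (91 cells, median depth 3803 UMIs against 15688 in the library), which should lack these genes, Prrx1 was found in 2 of 79 thinned cells (2.53%) and Osr2 in 3 (3.80%). The other 6 genes were found in 0 of these 79 cells, which allows shares of up to 4.56% by the exact binomial interval. Shares below that limit (Twist2 in all libraries, Meox1 in the 4 after injury, Prrx2 and Twist1 in SC3, SC4 and SC5, Meox2 in SC5) cannot be set apart from free RNA by this cluster. The 5.33% of Osr2 in SC10 is also not set apart by this cluster, in which Osr2 was found in 3.80% of cells. The cluster is from SC5, where Osr2 was at 93.8 CPM against 26.8 in SC10. Free RNA in the other libraries was not measured, and the limit of 4.56% follows from the number of cells, 79.

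**Figure D2:**
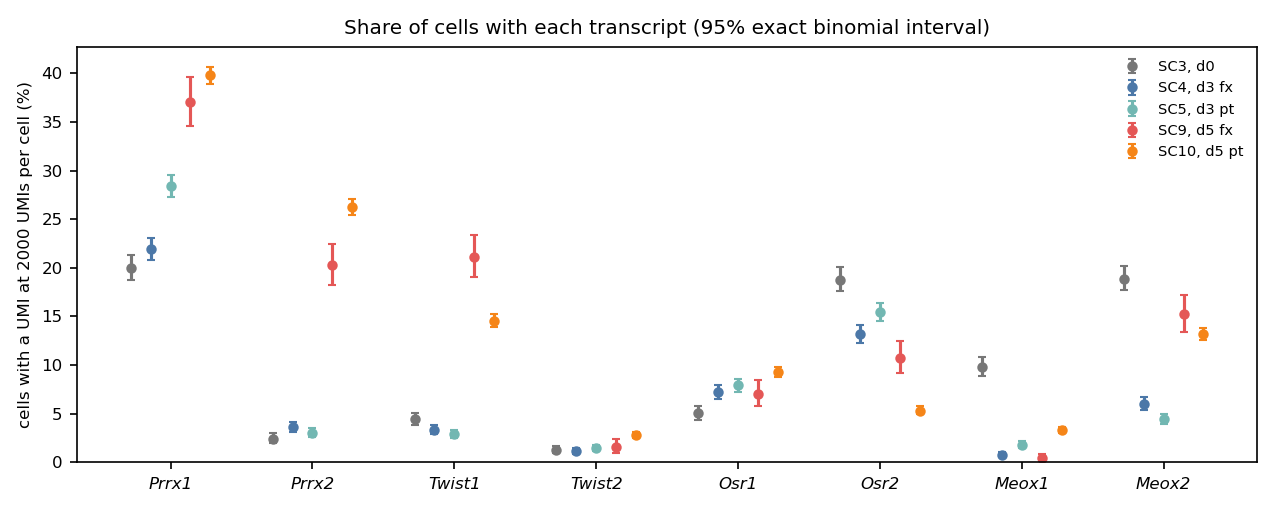
Share of cells (percent, vertical axis) with at least 1 UMI of each gene after each cell was drawn down to 2000 UMIs, by library (colour), with exact binomial 95% intervals. Prrx1, Prrx2 and Twist1 were highest in SC9 and SC10, and Meox1 and Osr2 in SC3.

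Each library was then set against its nearest counterpart, as the log2 ratio of CPM over genes with at least 5 CPM in either library. A change past 2-fold is called here, with no test behind it. From d0 to d3 post-fracture (SC4 against SC3), Meox1 fell by 4.08 on the log2 scale (16.9-fold) and Meox2 by 1.98 (3.95-fold). No other member passed 2-fold. The 2 lower members are 2 of 8, where 30% of the 9930 genes tested were lower and 11.8% higher, and the median of all genes was -0.37. Twist1 and Osr2 were at -0.81 and -0.84, and Prrx2 and Osr1 at 0.46 and 0.45. Prrx1 (-0.11) and Twist2 (-0.36) took the other sign, 0.47 and 0.22, when libraries were scaled by size factors (the median ratio over genes found in all libraries), under which Prrx2 and Osr1 passed 2-fold upward (both 1.03). Prrx1 was also at 0.03 with cells drawn down to 2000 UMIs. Dividing cells, counted by 2 or more markers, were 0.0864% of SC3 and 33.5% of SC4 at full depth, and 0.0514% and 5.89% with cells drawn down to 2000 UMIs. Without the cells counted at full depth Meox1 was at -4.17 and Meox2 at -1.93.

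From d3 to d5 post-fracture (SC9 against SC4, under the deposited labels d3 post-polytrauma against d3 post-fracture), Twist1 was 8.14-fold higher (log2 3.03, 95% counting interval 2.94 to 3.11) and Prrx2 7.27-fold (log2 2.86, interval 2.79 to 2.94). These ratios lay above those of 97.2% and 96.6% of the 9949 genes tested. Meox2 was 2.63-fold and Prrx1 2.06-fold higher. That makes 4 of the 7 members tested higher (Meox1 was under 5 CPM in both libraries), where 35.9% of all genes were higher and 4.22% lower, and the median of all genes was 0.62. With size factors, which moved that median to -0.12, Prrx2 (2.13) and Twist1 (2.29) stayed past 2-fold while Prrx1 was at 0.31 and Meox2 at 0.66. Osr1 (0.21) and Twist2 (0.73) changed to -0.53 and about 0, and Osr2 and Meox1 changed from -0.57 and -0.98 to -1.30 and -1.72. Prrx1 was at 0.92 without the barcodes found in more than 1 library and at 0.98 with cells drawn down to 2000 UMIs. Meox1 was at -0.09 without the shared barcodes. The 5 chondrocyte markers summed to 2816 CPM in SC9 and to between 80.3 and 299.6 in the other libraries, and 12.1% of SC9 cells were in chondrocyte-like clusters. Without those cells the ratio was 3.19 for Twist1 and 2.91 for Prrx2.

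From d3 to d5 post-polytrauma (SC10 against SC5, under the deposited labels d5 post-polytrauma against d5 post-fracture), Prrx2 was 11.6-fold and Twist1 7.07-fold higher, above 99.3% and 98.3% of the 9521 genes tested. Meox2 was 2.95-fold and Twist2 2.17-fold higher, and Osr2 was 3.51-fold lower. Of the 8 members 4 were higher and 1 lower, where 26.6% and 3.56% of all genes were. Twist2 was within 2-fold with size factors (0.63), without dividing cells (0.83) and with cells drawn down to 2000 UMIs (0.92). Meox1 was at 0.91 and Prrx1 at 0.60. Osr1 (-0.03) had an interval that spanned 0, and it turned to 0.21 when every cell was drawn down to 2000 UMIs. This contrast and the preceding one share no library, but SC9 and SC10 shared 944 barcodes. Of the SC9 cells 59.2% carried a barcode found in another library. Prrx2, Twist1 and Meox2 were past 2-fold in both contrasts by CPM, though Meox2 was at 0.66 with size factors in SC9 against SC4. How many of all genes were past 2-fold in both was not counted, and both contrasts run across the barcode sets.

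**Figure D3:**
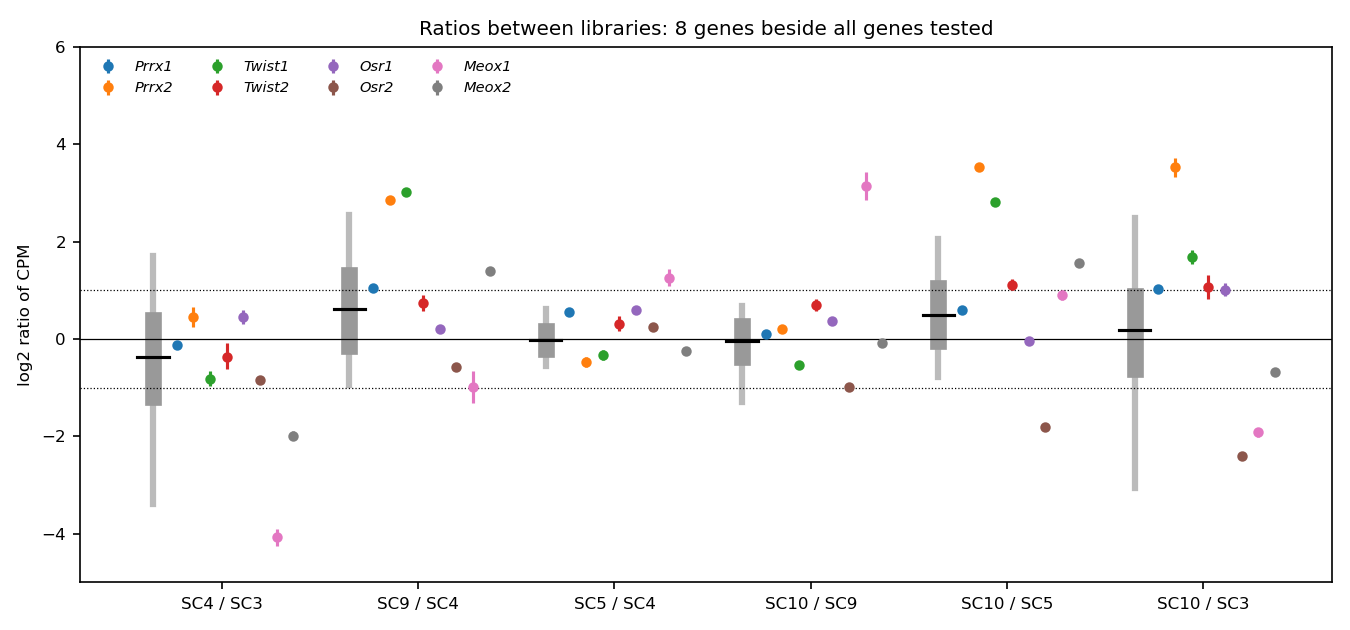
Log2 ratio of CPM (vertical axis) of the 8 genes in 6 pairs of libraries, with exact counting intervals. Beside them grey bars give the middle 50% (thick) and 90% (thin) of all genes tested, with a line at the median, and dotted lines mark 2-fold. Prrx2 and Twist1 stand above the grey range in SC9 against SC4 and SC10 against SC5, and Prrx2 also in SC10 against SC3. Meox1 is above it in SC5 against SC4 and SC10 against SC9, and Twist2 just above it in SC10 against SC9. Below it are Meox1 in SC4 against SC3 and SC9 against SC4, and Osr2 in SC10 against SC5.

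Within one barcode set, polytrauma was set against fracture at the same day. At d3 (SC5 against SC4, under the deposited labels d5 against d3 post-fracture), Meox1 was 2.39-fold higher, at 9.37 against 3.92 CPM. It was the 1 member of 8 past 2-fold, where 1.91% of the 8473 genes tested were higher and 1.35% lower. Prrx1 (0.55) and Osr1 (0.60) were also above, beyond 93.9% and 94.7% of genes, and Prrx2 (-0.46) and Twist1 (-0.33) below. At d5 (SC10 against SC9, under the deposited labels d5 against d3 post-polytrauma), Meox1 was 8.84-fold higher (log2 3.14, interval 2.86 to 3.44), at 17.6 against 1.99 CPM, beyond 99.9% of the 9987 genes tested. It was again the 1 member past 2-fold upward, where 1.43% of genes were higher and 7.78% lower. Without the barcodes found in more than 1 library, which left 599 cells of SC9, the ratio of Meox1 was 2.30. Osr2 was at -0.99, just inside 2-fold, and passed it without chondrocyte-like cells (-1.18) and with cells drawn down to 2000 UMIs (-1.17). Twist2 was at 0.70 and Twist1 at -0.53. Prrx1 (0.10) was at -0.02 without dividing cells and had an interval spanning 0 without chondrocyte-like cells. Meox2 (-0.09) was at 0.11 with size factors.

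Over the whole interval from d0 to d5 post-polytrauma (SC10 against SC3), Prrx2 was 11.5-fold, Twist1 3.21-fold, Twist2 2.10-fold, Prrx1 2.05-fold and Osr1 2.02-fold higher. Osr2 was 5.29-fold and Meox1 3.77-fold lower. That is 5 of 8 higher and 2 lower, where 21.4% and 18.1% of the 10393 genes tested were, and the last 3 of the higher members were near the 2-fold line. Twist2 was at 0.76 without dividing cells and Osr1 at 0.88 with cells drawn down to 2000 UMIs. Meox2 was at -0.67.

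Genes that work with these factors were read in 4 lists. Of the bHLH partners and inhibitors of Twist (the E proteins and the Id proteins, which bind E proteins and keep them from DNA), 6 of 7 were lower in SC4 than in SC3, led by Id4 (1.41 against 20.0 CPM, log2 -3.83), Id2 (29.1 against 243, -3.06) and Id1 (13.7 against 69.3, -2.34). The median of the list was -2.29, and 30% of all genes were lower. In SC9 against SC4, 6 of 7 were higher, where 35.9% of all genes were, and the median was 1.58. In SC10 against SC5, 4 of 7 were higher, where 26.6% of all genes were, with the E protein Tcf3 at 51.6 against 15.1 CPM (1.78). In SC10 against SC9, where 7.78% of all genes were lower, 2 were, among them Id2 (24.0 against 86.8 CPM, -1.85), and in SC10 against SC3 1 was higher and 4 lower, where 21.4% and 18.1% of all genes were, with Id2 at -3.34 and Id3 at -1.99.

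The 20 other limb bud mesenchyme factors had 10 members with enough UMIs to be read in SC4 against SC3, of which 5 were lower and 0 higher, where 30% and 11.8% of all genes were. In SC9 against SC4, 5 of 9 were higher, where 35.9% of all genes were, led by the short stature homeobox gene Shox2 (94.9 against 10.3 CPM, 3.20) and the hindlimb identity gene Pitx1 (20.1 against 2.44, 3.04). Shox2 was also higher in SC10 than in SC5 (55.3 against 13.9 CPM, 2.00), where 6 of 10 of the list and 26.6% of all genes were higher. Msx1, a homeobox gene of undifferentiated limb mesenchyme, was lower in SC10 than in SC3 (8.65 against 33.5 CPM, -1.95), where 4 of 12 were higher and 3 lower, beside 21.4% and 18.1% of all genes. In SC5 against SC4, 1 of 8 was higher, where 1.91% of all genes were, Tbx3 (15.4 against 5.97 CPM), named here after its value was seen. None of 10 passed 2-fold in SC10 against SC9.

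Of the 4 Snail and Zeb factors, repressors of epithelial genes, 3 were lower in SC4 than in SC3 (30% of all genes), 3 were higher in SC9 than in SC4 (35.9%) and 3 in SC10 than in SC5 (26.6%). Snai2 stood at 32.4 against 6.01 CPM (2.43) in the former and at 27.0 against 3.50 (2.95) in the latter of these d5 contrasts. Of the connective tissue factors, 8 of 10 were lower in SC4 than in SC3, where 30% of all genes were, among them Ebf2 (14.4 against 114 CPM, -2.98) and Foxc1 (8.97 against 55.1, -2.62). In SC9 against SC4, 8 of 10 were higher, where 35.9% of all genes were, with Klf4 at 1256 against 187 CPM (2.75) and Foxc1 at 47.0 against 8.97 (2.39). In SC10 against SC5, 6 of 10 were higher, where 26.6% of all genes were, with Runx1 at 347 against 91.9 CPM (1.92) and Hic1, a marker of quiescent mesenchymal progenitors, at 44.1 against 14.2 (1.63). In SC10 against SC9, Klf4 (-1.42) and Foxc1 (-1.21) were lower, where 7.78% of all genes were. In SC10 against SC3, 3 of 11 were higher and 5 lower, where 21.4% and 18.1% of all genes were, with Runx1 at 2.46 and Ebf2 at -2.18. Beside these list counts stand medians of all genes of -0.37 in SC4 against SC3, 0.62 in SC9 against SC4 and 0.48 in SC10 against SC5. With size factors these medians were 0.20, -0.12 and about 0, so that the direction of all genes depended on the scaling.

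Each library was clustered by itself, with the 8 genes and all cell type markers kept out of the variable genes. Levels in a cluster are summed CPM of its cells. At d0, 13 clusters of 50 or more cells were described. Prrx1 was between 42.5 CPM in a pericyte-like cluster and 687 in 67 cells led by Bglap2, Bglap, Ostn and Mmp13, where Bglap codes for the osteoblast protein osteocalcin. The same 67 cells had the highest Prrx2 (72.8, interval 49.8 to 103) and the lowest Meox2 (13.6) of d0. Their Twist1 (63.7) and Twist2 (34.1) had intervals that overlapped those of a tenocyte-like cluster (63.3 and 23.3). All 5 fibroblast markers passed in these cells, but they were left unnamed because Bglap, outside the lists, was among their leading genes.

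Meox1 reached 268 CPM at d0 in a tenocyte-like cluster of 135 cells led by Chodl and Col22a1, the latter a collagen of muscle-tendon junctions, and 255 in a cluster of 554 FAP/MP-like cells (with markers of fibro-adipogenic or mesenchymal progenitors) led by Cyp2f2 and Clu, in which Meox1 itself was a leading gene. In the pericyte-like clusters it was at 10.4 CPM and at 0 UMIs in 147 cells, with an interval up to 6.76 CPM. Meox2 was highest in the same tenocyte-like cluster (335 CPM), but it was also at 80.2 and 115 in both pericyte-like clusters.

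Osr1 was highest at d0 in FAP/MP-like clusters, with 94.2 CPM in the one led by Inmt and Gdf10 and 64.2 in the one led by G0s2 and Hsd11b1. In the tenocyte-like clusters it had 2 UMIs (1.70 CPM) and 0 UMIs, with intervals up to 6.15 CPM. Osr2 reached 895 CPM (interval 790 to 1009) in 101 cells led by Ptcra, Spp1 and Apod with the myelin-associated gene Ncmap among the leading 10, a cluster given no name. It was at 256 CPM in a cluster with Pi16, a marker of adventitial fibroblasts, among its leading genes, and at 11.2 and 0 in the pericyte-like ones.

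**Figure D4:**
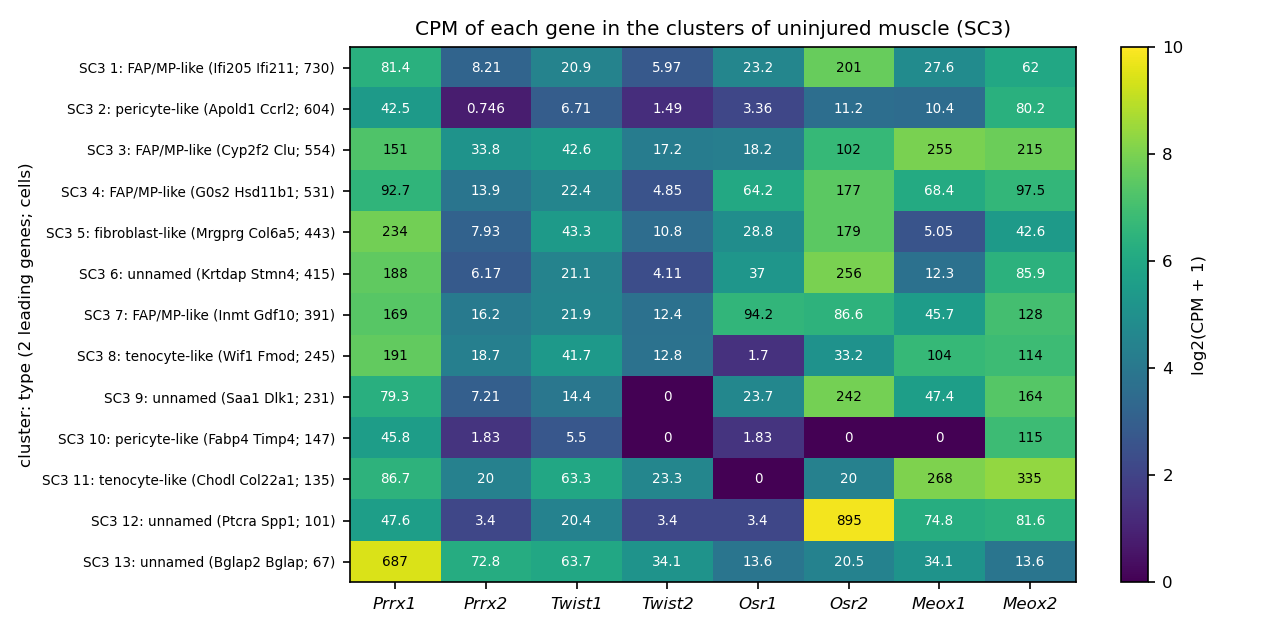
CPM of each gene (columns) in the 13 described clusters of d0 (rows, with 2 leading genes and the number of cells), coloured by log2(CPM + 1). Meox1 was highest in clusters 11 and 3, Osr2 in cluster 12, Prrx1 in cluster 13, and the pericyte-like clusters 2 and 10 were the lowest for Prrx1 and Prrx2.

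The higher levels of Prrx2 and Twist1 in SC9 and SC10 than in SC4 and SC5 were found in every described cluster. Prrx2 was between 98.1 and 157 CPM in the 9 clusters of SC9 and between 46.4 and 253 in the 13 of SC10, against 3.26 to 39.1 in the 11 of SC4 and 0 to 30.0 in the 11 of SC5. Twist1 was between 46.0 and 183 CPM in SC9 and between 37.2 and 145 in SC10, against 0 to 26.3 in SC4 and 0 to 22.6 in SC5. The 145 CPM was from a cluster of 151 SC10 cells with a median depth of 1158 UMIs. Of these cells 87.4% carried a barcode found in more than 1 library, and the cluster is among the 13 of SC10 in all counts here. Prrx2 and Twist1 were the members with all clusters of SC9 above all of SC4, and with all of SC10 above all of SC5. Of all genes tested the same held for 14.2% between SC9 and SC4 and for 4.51% between SC10 and SC5. No member had all clusters below, where 1.48% and 0.347% of genes did. Meox2 had 4 of 9 clusters of SC9 above all of SC4, and 9 of 13 of SC10 above all of SC5. It was not alone in this, with 4 of 9 and 8 of 13 for Prrx1 and 2 of 9 and 9 of 13 for Twist2. Against d0 the clusters overlapped more. Prrx2 had 9 of 9 clusters of SC9 and 11 of 13 of SC10 above the highest of d0 (72.8 CPM), and Twist1 had 7 of 9 and 9 of 13 above the highest of d0 (63.7). How many of all genes did so was not counted, neither against d0 nor for the counts of a part of the clusters above.

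Chondrocyte-like cells, which were clustered in SC9 (178 cells in 2 clusters) and SC10 (225 cells in 1), were set against the other cells of their library. How many of all genes were lower in them was not counted, so lower values are not shown to be particular to the 8 genes. In SC9 Osr1 was at 7.56 against 47.9 CPM (log2 -2.66, interval -3.04 to -2.31), Osr2 at 13.6 against 61.1 (-2.17), Meox2 at 22.8 against 84.2 (-1.88) and Twist1 at 47.8 against 136 (-1.51). Prrx1 was at 152 against 277 CPM (-0.86), Twist2 at 6.87 against 11.4 (-0.73) and Prrx2 at 108 against 134 (-0.31, interval -0.42 to -0.21). Meox1 had 0 UMIs there, against 2.38 CPM in the other cells. In SC10 Osr1 was again far below, at 8.28 against 53.5 CPM (-2.69), with Meox2 at 11.7 against 70.5 (-2.59), Osr2 at 8.28 against 27.0 (-1.71) and Meox1 at 3.01 against 17.7 (-2.56). Twist1 was at 54.2 against 84.6 CPM (-0.64), Prrx1 at 173 against 276 (-0.68) and Prrx2 at 135 against 150 (-0.15, interval -0.30 to 0.00). In SC9 the interval of Osr2 overlapped those of Osr1 and Meox2. In SC10 the intervals of Osr1, Osr2, Meox1 and Meox2 all overlapped, so that these genes were not ranked. Barcodes found in more than 1 library were carried by 138 of the 178 cells of SC9 (77.5%) and 97 of the 225 of SC10 (43.1%). SC9 and SC10 share 944 barcodes. The 128 SC10 cells without a shared barcode held 437 of the 459 Prrx1 UMIs of these 225 cells. Without shared barcodes, the 128 cells left in SC10 had Osr1 at -2.68, Meox2 at -2.72, Twist1 at -0.64 and Prrx2 at -0.15. The 40 cells left in SC9 had Osr1 at -3.29, Meox2 at -1.44, Twist1 at -1.03, Prrx2 at -0.45 and Prrx1 at -0.35, while the intervals of Twist2 and Meox1 then spanned 0. The 5 markers that gave these clusters their name (among them Sox9 and Col2a1) and the 8 genes themselves were not among the variable genes that formed them.

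Among the other clusters, Prrx1 was highest in SC9 in the FAP/MP-like cells led by Cxcl14 and the interferon-induced genes Ifit1 and Ifit3 (448 CPM), and Twist1 (183), Osr1 (108) and Osr2 (140) in those led by Pi16 and Tnxb. Osr2 was highest in the cluster with Pi16 as a leading gene in SC4 (141 CPM) and SC10 (70.6) as well, while in SC5 that cluster was at 90.6 CPM and another led with 162. In SC10 the tenocyte-like cluster, with Tnmd, Kera and Scx among its leading genes, had the highest Prrx2 (253 CPM). Its Osr1 was at 20.1 and its Osr2 at 10.2 CPM, and 22.1% of its cells were called possible doublets, against 15.2% of all SC10 cells. Meox1 was itself a leading gene of an unnamed cluster of 2157 SC10 cells, at 27.8 CPM. The tenocyte-like cluster of SC4 had the highest Meox1 of that library, but at 13.6 CPM against the 268 and 104 of the tenocyte-like clusters of d0. Pericyte-like clusters were at or near the bottom for Prrx1 at d0 (42.5 and 45.8 CPM). After injury they stood at 227 and 68.4 in SC4, 247 in SC5 and 338 in SC10, where 3 of these 4 were at or next to the top of their library. These 4 clusters held 54 to 106 cells. In the pericyte-like cluster of SC10, 21.7% of cells were called possible doublets, against 15.2% of all SC10 cells and 21.6% of its largest cluster. The pericyte-like clusters of SC9 held 20 and 19 cells and were not described.

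**Figure D5:**
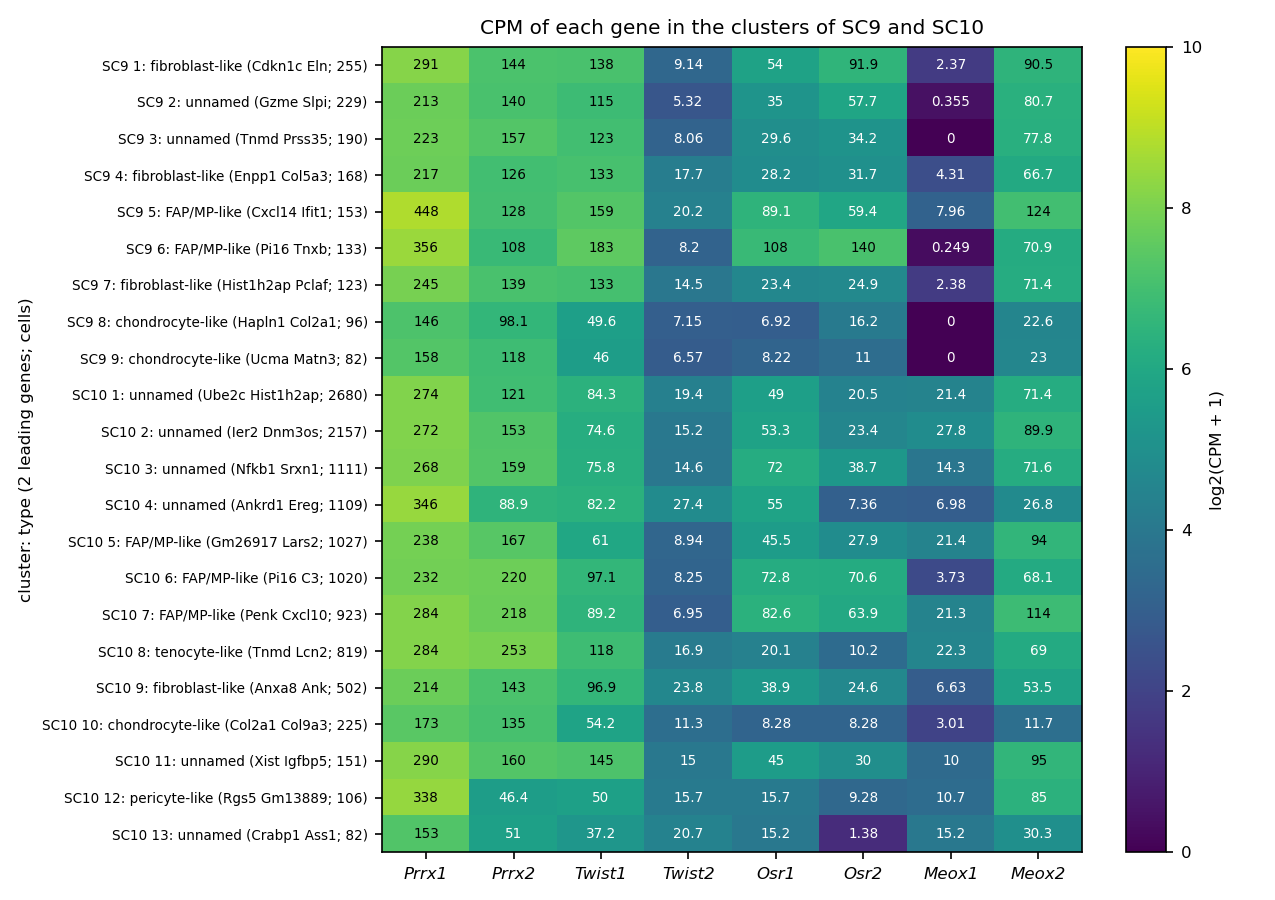
CPM of each gene (columns) in the described clusters of SC9 and SC10 (rows, with 2 leading genes and the number of cells), coloured by log2(CPM + 1). In the 3 chondrocyte-like rows Osr1 and Meox2 are between 6.92 and 23.0 CPM, while Prrx2 is between 98.1 and 135 CPM.

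Detection of 2 paralogs in the same cell was compared with their separate detection. At 2000 UMIs per cell, Prrx2 was found in 26.6% of the SC10 cells with Prrx1 and in 26.1% of those without, and in SC9 in 21.2% and 19.8%. Twist1 was found in 15.3% of the SC10 cells with Twist2 and 14.6% of those without. In these 3 comparisons the intervals overlapped. Osr2 was more frequent among cells with Osr1 in SC4 (21.2% against 12.6%, intervals not overlapping), while in the other 4 libraries the intervals overlapped. Meox2 was more frequent among cells with Meox1 in SC3 (28.7% against 17.8%, not overlapping). In SC5 it was at 1.80% with Meox1 and 4.53% without, with overlapping intervals. In SC4 Prrx2 was found in 5.10% of cells with Prrx1 and 3.18% of those without, and these intervals did not overlap. Nor did those of some pairs that are not paralogs, which are not listed in full here. At d0 Prrx2 was found in 6.98% of cells with Twist1 and 2.23% of those without, and Meox1 in 24.2% of cells with Prrx2 and 9.49% of those without. The shares of Prrx2 and Twist1 at d0 are among those not set apart from free RNA by the SC5 cluster above. Between d0 clusters Prrx2 ranged from 0.746 to 72.8 CPM and Twist1 from 5.50 to 63.7, and free RNA at d0 was not measured. Cells are not replicates, and these shares describe 1 library each.

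Over the 47 sums of a library and a cluster with at least 100 cells, Prrx2 and Twist1 had the highest Pearson r of log2(CPM + 1) of all pairs of members (0.86). With each library's mean taken out it was 0.705, and Twist1 with Twist2 was highest (0.73, from 0.65). Prrx1 followed Prrx2 (0.79) and Twist1 (0.74), which were at 0.44 and 0.62 with library means taken out. Meox1 was best matched among the members by Meox2 (0.46). The other genes with the most similar course, out of 11552 searched, were Lpgat1, Shc2 and Ankib1 for Prrx1 (r 0.85 to 0.88), Dnajc1, Mtch1 and Hgsnat for Prrx2 (0.93 to 0.94) and Chic2, Mtch1 and Scarf2 for Twist1 (0.93). They were Taf5l, Slc41a2 and Ap1s2 for Twist2 (0.73 to 0.82), Dram1, Plac8 and Isg20 for Osr1 (0.79 to 0.84) and Best1, Ifi211 and Tnfaip6 for Osr2 (0.77 to 0.79). For Meox1 they were Vamp4, Cyba and Cd81 (0.71 to 0.73) and for Meox2 Crot, Runx1t1 and Nrep (0.86 to 0.89). With library means taken out other genes led for Prrx2 (Mrc2, Vkorc1 and Cbfb, 0.81 to 0.82), and Dnajc1 was at 0.59. For Twist1 Lpar1, Fam102b and Lhfpl2 then led (0.80 to 0.83), while Crot stayed first for Meox2 (0.80). The sums share libraries, depth and barcode set, so these values describe the course only.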

How the data were processed

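GFP+ cells of hindlimb muscle were measured by droplet scRNAseq in 5 libraries of 2 pooled mice each. Per the labels, the authors used mm10 and Cell Ranger (3.1.0 in the file headers, another version in the methods) and deposited counts of UMIs per gene and barcode, without normalization. SC9 holds 2001 barcodes, which matches the cell number given for d5 post-fracture, and SC5 holds 6915. The paper reports its chondrocyte population at d5 post-fracture, and the chondrocyte marker Col2a1 was at 1525 CPM in SC9 and 0.106 in SC5. The members and lists were chosen with earlier results of these data known.

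UMIs were summed per library and scaled to CPM. Ratios were given exact conditional intervals, sums exact Poisson intervals and shares exact Clopper-Pearson intervals, all at 95% and for counting error only. Possible doublets (Scrublet in scanpy 1.11.5, at 0.8% per 1000 cells where its own threshold called too few) were kept. Each library was clustered with leidenalg 0.10.2 from 2000 variable genes, 20 principal components, 15 neighbours and a resolution of 0.5. A cluster was named where 3 or more markers of a type were found in 10% or more of its cells and exceeded the average elsewhere, with fibroblast giving way to any other type and the type with the largest share of its markers chosen. It stayed unnamed where types tied, where its 10 leading genes held more markers of another type, or where its cells were shallow with no marker of that type among them. Clusters led by Bglap, Bglap2 or Ncmap were left unnamed, a rule set after they were seen. List genes with at least 20 CPM in the higher library and past 2-fold were named, at most 5 per comparison by size, with the 3 most similar genes per member. Alternatives were size factors, other limits on cells, barcodes, doublets and cell types, thinning, filters, labels and resolutions. Leaving out chondrocyte-like cells, leaving out shared barcodes unless 10 times deeper, and describing chondrocyte-like cells without shared barcodes were chosen after seeing the data. Scripts (Python 3.11.15, numpy 2.4.6, scipy 1.17.1, pandas 2.3.3) were tested on simulated data.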

Additional observations from a re-analysis of the deposited data

Results flagged for a closer look

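Meox1 moved in opposite directions from d3 to d5 in the 2 injuries when SC5 and SC9 were placed by cell numbers. After fracture (SC9 against SC4) its log2 ratio was -0.98, from 3.92 to 1.99 CPM, and after polytrauma (SC10 against SC5) it was 0.91, from 9.37 to 17.6 CPM. Neither ratio passed 2-fold. In SC9 against SC4 Meox1 was under 5 CPM in both libraries, and its value in SC9 rested on 103 UMIs. With 1 library per condition the difference was not tested. Under the deposited labels both were upward, at 1.26 for fracture (SC5 against SC4) and 3.14 for polytrauma (SC10 against SC9). Without barcodes found in more than 1 library the value after fracture was -0.09.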

How the results depend on the processing

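No paired analysis was possible because each condition has 1 library, and no library could be left out. Keeping cells without a UMI minimum, keeping every barcode, leaving out hematopoietic, endothelial or myogenic cells, and leaving out shared barcodes unless 10 times deeper kept all 48 ratios of members on their side of 0 and of 2-fold. Size factors in place of CPM changed the sign of 5 of 48 and the 2-fold call of 7. They gave 2 members higher (from 0) in SC4 against SC3, and 2 higher (from 4) and 2 lower (from 0) in SC9 against SC4. The share of all genes past 2-fold with size factors was not counted, so these counts have nothing to be read against. Leaving out possible doublets gave 1 lower member in SC9 against SC4, Meox1. In SC10 against SC9, 1 lower member, Osr2, was called with cells drawn down to 2000 UMIs and without chondrocyte-like cells. Drawing down changed 4 calls of 48, leaving out dividing cells 2, and leaving out all shared barcodes 1. With the conditions as deposited, 9 called values turned: d5 against d3 post-fracture was -0.46 for Prrx2, -0.33 for Twist1 and -0.25 for Meox2, d3 post-polytrauma against d3 post-fracture was -0.98 for Meox1, and d5 against d3 post-polytrauma was -0.53 for Twist1 and -0.087 for Meox2, and against d0 Prrx2 at d5 post-fracture went from 3.32 to -0.01, Twist1 at d5 post-fracture from 2.21 to -1.14, and Twist1 at d3 post-polytrauma from -1.14 to 2.21. Drawing cells to 1000 UMIs moved 38 of 40 shares. A lower depth by itself lowers nearly every share, so this count does not show whether differences between libraries held. The highest cluster level was within its interval for 30 of 40 at a resolution of 0.3 and 27 of 40 at 1.0. Counts of all genes past 2-fold kept within 1.5 times with every gene included. Depth limits Meox1 in SC9 (103 UMIs) and Twist2 in SC3 (143 UMIs).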
